A study of Homo sapiens with 7 samples.

Results

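The kallikrein genes KLK5, KLK6, KLK7, KLK8, KLK9, KLK10, KLK11, KLK12, KLK13 and KLK14 were examined in RNA-seq of the esophageal squamous carcinoma lines TE5 and KYSE140, both established cell lines. The 10 genes were taken by name from the 56236 genes to which transcripts of the files could be assigned. Cells of both lines were grown in DMEM with fetal bovine serum and carried control (scramble) shRNA or shRNA that silences TP63 (shTP63) or SOX2 (shSOX2). In TE5 the long non-coding RNA CCAT1 was silenced too (shCCAT1), which gives 7 libraries with 1 library per condition. TP63 and SOX2 are transcription factors of squamous epithelium, and the silencing asked which genes depend on them. The targeted gene itself was at 25.2% (TE5) and 26.1% (KYSE140) of the scramble level for TP63 and at 39.4% and 76.4% for SOX2, so SOX2 was lowered less in KYSE140. SOX2 was also at 66.6% in the TE5 shTP63 library. The level of CCAT1 itself was not analysed here.

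Tissue kallikreins are secreted serine proteases that are made as inactive proenzymes and are activated by cleavage outside the cell. In squamous epithelia they act in a cascade: KLK5 activates itself and other kallikreins, KLK7 and KLK14 act with it, and together they cut the desmosomal proteins that hold the outer cells together, so that these cells are shed. LEKTI, the product of SPINK5, holds KLK5, KLK7 and KLK14 in check, and several kallikreins cleave the receptor PAR2, the product of F2RL1. KLK6, KLK8, KLK10 and KLK11 are often expressed by carcinomas, and KLK10 is known for having little protease activity of its own.

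All 10 genes lie on the minus strand of chromosome 19, between positions 51446559 and 51587502 of hg19, a span of 140944 bases. KLK6 (ENSG00000167755, 51461887 to 51472929) has an upstream first exon (51472746 to 51472847 in the annotation used here) and a downstream first exon. The gene model in the files gives the main upstream transcript 1511 bases, 82 more than the 1429 of the annotation, so its start may lie further upstream. The sequence before the upstream start of KLK6 is shown because the lines differed in its share of KLK6, and those of KLK10 and KLK5 because these genes had the lowest and the highest edgeR log2 difference between the lines. Each is from the minus strand of GRCh37 (hg19), written 5′ to 3′ and ends at the last base before an annotated start, and capitals mark the motifs searched for. The KLK6 window is chr19:51472930-51473179, upstream of all annotated KLK6 exons. It ends before the annotated start of ENST00000597379, which had 0 counts in every library. The KLK10 window is chr19:51522966-51523075, shortened where another annotated first exon of KLK10 begins, and the KLK5 window is chr19:51456350-51456599.
KLK6 upstream start: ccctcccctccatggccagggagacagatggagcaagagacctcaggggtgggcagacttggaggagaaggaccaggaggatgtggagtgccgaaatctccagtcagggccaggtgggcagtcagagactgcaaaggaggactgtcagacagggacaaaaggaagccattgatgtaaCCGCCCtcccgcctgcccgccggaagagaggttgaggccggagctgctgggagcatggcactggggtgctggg
KLK10 start: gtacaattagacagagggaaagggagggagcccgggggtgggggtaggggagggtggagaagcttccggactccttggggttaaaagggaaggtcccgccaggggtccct
KLK5 start: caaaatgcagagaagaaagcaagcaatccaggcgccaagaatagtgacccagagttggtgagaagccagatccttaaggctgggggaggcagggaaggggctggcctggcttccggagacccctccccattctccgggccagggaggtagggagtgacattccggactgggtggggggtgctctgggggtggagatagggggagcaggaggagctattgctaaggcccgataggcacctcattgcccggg

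The motifs searched on both strands were the TATA box TATAAA, the AP-1 type TGANTCA, the SOX type ACAANG, the GC box GGGCGG and the half-site of the p53 family. The KLK6 window shown held 1 GC box, which begins 73 bases before its end, and the other windows shown held none of these letters. Over the 250-base windows before the outermost protein-coding start of each kallikrein gene, 6 of 10 held ACAANG and 4 of 10 GGGCGG, and 0 of 10 held the TATA box, the AP-1 type or the p53-family half-site. For KLK6 and KLK10 these are other windows than those shown. That of KLK6 (chr19:51472848-51473097), before the annotated start of the main upstream transcript, held 1 ACAANG and 3 GGGCGG. That of KLK10 (chr19:51523432-51523681) held 1 ACAANG. Over 19798 protein-coding genes ACAANG occurred in 27.4% of windows, GGGCGG in 50.9%, the TATA box in 9.82%, the AP-1 type in 5.3% and the p53-family half-site in 5.14%.

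The libraries held between 68532611 and 98036494 estimated counts. In TE5 the scramble library was sequenced on another flow cell than the knockdown libraries, and in KYSE140 in another lane, so that a difference shared by all knockdown libraries of a line and a difference between lanes cannot be told apart. With 1 library per condition there is no replicate error within a line, and the 95% intervals given for single comparisons cover counting error only. Of the squamous markers TP63, KRT5, KRT14, KRT6A and DSG3, all 5 were measured in both lines, but KRT14 was near 0 in TE5, at 0.202 to 0.546 TPM against 303.5 to 1689 TPM in KYSE140. TPM is the abundance per transcript length, scaled to each library.

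By TPM, KLK10, KLK8 and KLK6 were the main kallikreins of both lines and together made up 93.6% to 95.9% of the TPM of the 10 genes in TE5 and 74.8% to 85.0% in KYSE140. The summed TPM of the 10 genes was 92.8 in TE5 scramble, 168.9 in shTP63, 90.6 in shSOX2 and 74.0 in shCCAT1, and in KYSE140 it was 31.3 in scramble, 29.4 in shTP63 and 34.4 in shSOX2. The order of the genes differed between the lines: KLK10 was first in every TE5 library, with 37.2% to 50.4% of the summed TPM, and KLK8 was first in every KYSE140 library, with 40.3% to 43.9%. The remaining 7 genes were low, and all stayed at or below 3.16 TPM in every library. KLK12 and KLK13 were lowest, with at most 12.5 and 13 estimated counts in any library. KLK13 had 0 counts in TE5 scramble and shCCAT1, and KLK12 had 0 in TE5 shSOX2 and shCCAT1, and a count of 0 allows up to 3 counts.

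**Figure D1:**
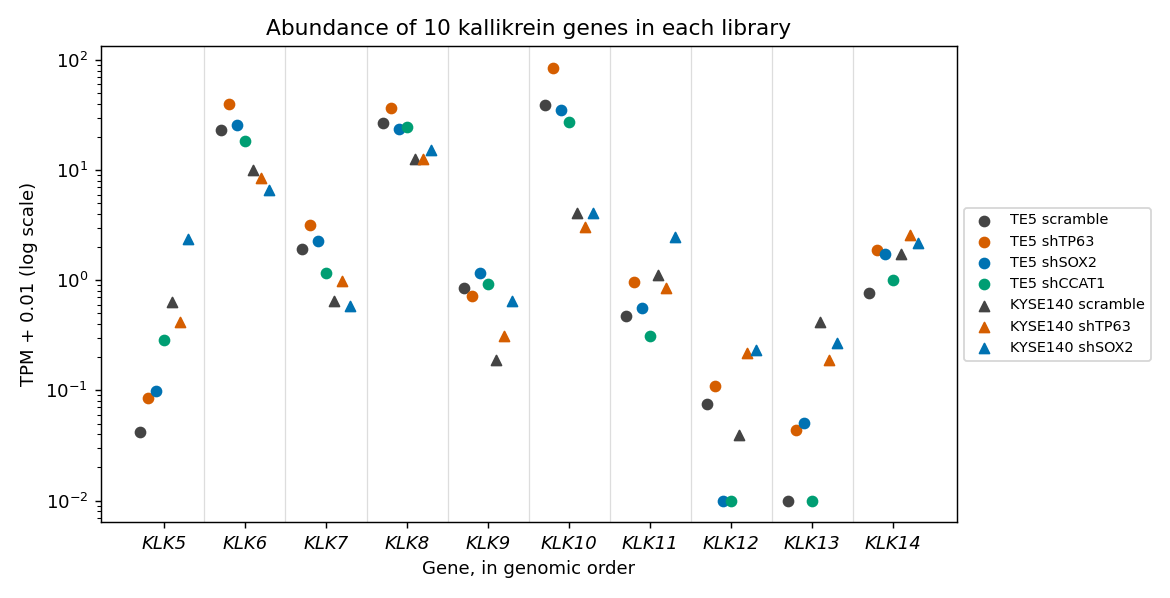
TPM of the 10 kallikrein genes in each library (y axis, TPM + 0.01, log scale; x axis, genes in genomic order), with circles for TE5, triangles for KYSE140 and colours for the shRNA. KLK10 lies between 27.5 and 85.2 TPM in TE5 and between 3.0 and 4.06 in KYSE140, while KLK5 has the opposite order.

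The largest differences in the cluster were between the lines. KLK10 (ENSG00000129451, 51515995 to 51523431) had 2911 normalized counts in TE5 scramble, 5594 in shTP63, 2632 in shSOX2 and 1969 in shCCAT1. In KYSE140 it had 286.8 in scramble, 198.4 in shTP63 and 364.1 in shSOX2. Every TE5 library was above every KYSE140 library, and the mean over TE5 libraries was 11.6 times that over KYSE140 libraries. With both lines in 1 edgeR quasi-likelihood fit of 6 libraries (scramble, shTP63 and shSOX2 of each line, condition as a covariate), the log2 difference of KYSE140 from TE5 was -3.65 (standard error 0.45, Benjamini-Hochberg adjusted p = 0.00346).

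KLK5 (ENSG00000167754, 51446559 to 51456349), the protease at the head of the cascade, had the opposite order. It had 53.4 normalized counts in KYSE140 scramble, 23.0 in shTP63 and 219.7 in shSOX2. In TE5 it had 2.14 in scramble, 4.75 in shTP63, 6.34 in shSOX2 and 17.3 in shCCAT1, all below the lowest KYSE140 library. The edgeR log2 difference was 3.98 (standard error 0.77, adjusted p = 0.0127).

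In this fit 9 of the 10 genes passed the filter on low counts and KLK12 did not, and 7 of the 9 were called at an adjusted p under 0.1. Between the lines 57.9% of all 30171 features were called, so most features differed and the count of kallikreins is to be read beside that. KLK10, KLK6, KLK7 and KLK8 were lower in KYSE140, and KLK5, KLK13 and KLK14 were higher. KLK6, a trypsin-like protease, had a log2 difference of -1.63 (standard error 0.22, adjusted p = 0.00437), KLK7, the chymotrypsin-like protease of the outer skin, one of -1.51 (standard error 0.27, adjusted p = 0.0107), and KLK8, known as neuropsin, one of -1.04 (standard error 0.28, adjusted p = 0.0329). KLK14, a trypsin-like protease, had 0.90 (standard error 0.33, adjusted p = 0.0793) and lost its call without the filter on low counts (adjusted p = 0.133), without condition in the fit (adjusted p = 0.144) and when any 1 of the 6 libraries was left out (adjusted p = 0.135 to 0.268). KLK13 had 3.67 (standard error 1.05, adjusted p = 0.041) on at most 13 estimated counts. KLK11 (1.36, adjusted p = 0.129) and KLK9 (-1.05, adjusted p = 0.196) were not called. The number of kallikreins called was 4 to 6 when 1 library was left out, and was 4 of 10 tested without either scramble library. Beside these 4, 13158 of 33145 features were called without KYSE140 scramble and 13040 of 33052 without TE5 scramble. KLK13 lost its call without any 1 library but TE5 shSOX2 (adjusted p = 0.107 to 0.161), and KLK8 without either scramble or either shTP63 library (adjusted p = 0.107 to 0.128). KLK11 was called without either shTP63 library (adjusted p = 0.0528 and 0.0484).

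**Figure D2:**
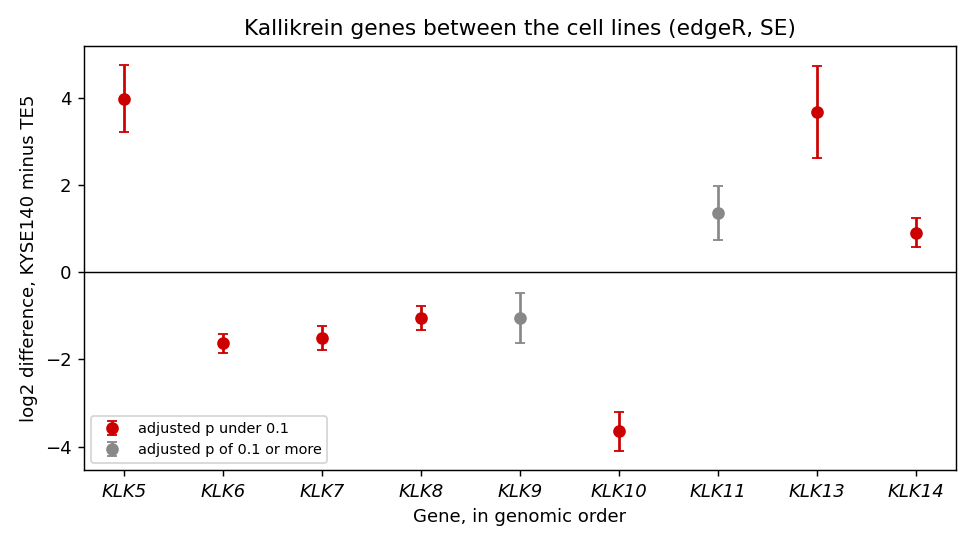
edgeR log2 difference of KYSE140 from TE5 for the 9 kallikrein genes tested (y axis), with standard errors as bars, genes in genomic order and called genes in red. KLK5 at 3.98 and KLK13 at 3.67 lie highest and KLK10 at -3.65 lies lowest.

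Values by library, in normalized counts, show which of these differences were complete by that measure. The lines did not overlap for 8 of 10 kallikreins, 4 higher in TE5 and 4 in KYSE140, beside 29.2% and 24.4% of 27274 genes with at least 10 estimated counts in any library. They overlapped for KLK9 and KLK12. By TPM the lines did overlap for KLK11, which reached 0.963 in TE5 and was as low as 0.850 in KYSE140. KLK14 also overlapped by TPM, with 1.86 and 1.73, while KLK9 did not, with at least 0.713 in TE5 and at most 0.641 in KYSE140. KLK6 lay between 1457 and 2940 normalized counts in TE5 and between 643.0 and 864.5 in KYSE140. KLK8 lay between 606.6 and 840.1 in TE5 and between 281.6 and 423.6 in KYSE140. KLK7 came closest to overlapping, with 99.8 to 263.0 in TE5 and 63.0 to 98.7 in KYSE140. On the other side, KLK14 lay between 43.0 and 98.8 in TE5 and between 107.8 and 157.0 in KYSE140, and KLK11, a trypsin-like kallikrein, between 17.4 and 52.4 in TE5 and between 56.1 and 185.0 in KYSE140.

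KLK6 also differed between the lines in the start of its transcripts. Transcripts with the upstream first exon held 97.7% of the KLK6 counts placed at either start in KYSE140 scramble (95% Clopper-Pearson interval 96.3 to 98.8), 97.2% in shTP63 (95.8 to 98.2) and 91.2% in shSOX2 (88.4 to 93.4). In TE5 they held 39.3% in scramble (37.01 to 41.6), 34.0% in shTP63 (32.4 to 35.5), 31.7% in shSOX2 (29.6 to 33.8) and 43.9% in shCCAT1 (41.6 to 46.2). The mean share was 95.4% ± 3.60 (SD, n = 3) in KYSE140 and 37.2% ± 5.48 (SD, n = 4) in TE5, a difference of 58.2 percentage points, with a 2-sided exact permutation p of 0.0571, the smallest that 4 libraries against 3 can give. The libraries of a line carry different shRNAs and come from that line alone, so these p-values and the edgeR values above describe a pair of lines.

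The upstream transcripts alone were at like levels in both lines, with 639.3 to 979.0 normalized counts in TE5 and 586.5 to 844.7 in KYSE140, ranges that overlap. The transcripts from the downstream start had 817.9 to 1902 in TE5 and 19.8 to 56.5 in KYSE140. The difference in KLK6 level between the lines thus lay in the downstream-start transcripts. The placement rests on the model of the quantification. Among the annotated transcripts the main upstream transcript has 0 words of 31 bases of its own, whereas the longest downstream transcript has 181. The first exon of the main upstream transcript lies within that of ENST00000597379, so these values do not measure how well the starts can be told apart. The upstream (51472746 to 51472847) and downstream (51471797 to 51472228) first exons do not overlap. Words particular to each start were not counted. An antisense locus that overlaps KLK5 and KLK6 (ENSG00000269495) had at most 3.58 estimated counts in any library.

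**Figure D3:**
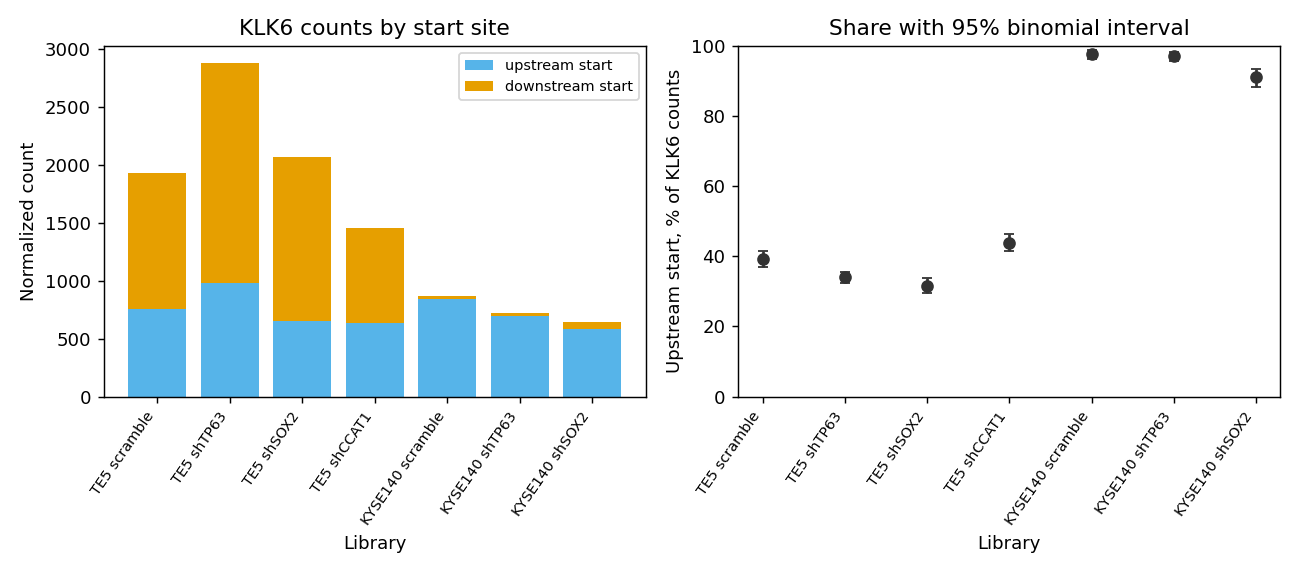
KLK6 by transcript start in each library: normalized counts of upstream-start and downstream-start transcripts (left, stacked bars) and the upstream share in percent with its 95% binomial interval (right). The upstream share lies between 91.2% and 97.7% in KYSE140 and between 31.7% and 43.9% in TE5.

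Upon TP63 silencing, most kallikreins were higher in TE5, and KLK10 and KLK6 were lower in KYSE140. In TE5, 7 kallikreins had at least 10 estimated counts in 1 of the 2 libraries. Of these, 6 were above their scramble level and 1 was below, beside 13043 of 24405 genes above 0. Only KLK14 passed a log2 fold change of 1, going from 43.0 to 93.4 normalized counts, a log2 fold change of 1.10 (95% counting interval 0.60 to 1.68). KLK10 came next to it at 0.94 (0.88 to 1.01), from 2911 to 5594 normalized counts, and by summed TPM it was at 1.12, past the fold. KLK11 was at 0.89 (0.24 to 1.62), KLK6 at 0.59 (0.51 to 0.67), KLK7 at 0.42 (0.16 to 0.69) and KLK8 at 0.30 (0.16 to 0.44). The median of the 7 was 0.59, beside 0.05 over all 24405 genes counted in this comparison, of which 14.6% were past the fold upward and 5.72% downward, and 1 of 7 upward is near that background.

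TE5 shTP63 was the highest of the 4 TE5 libraries for KLK6, KLK7, KLK8, KLK10 and KLK11. It was thus also the highest of the libraries of its own lane, which do not include scramble. Against shSOX2 of the same lane, the log2 difference was 1.09 (1.02 to 1.15) for KLK10, 0.47 (0.39 to 0.55) for KLK6, 0.49 (0.22 to 0.75) for KLK7 and 0.47 (0.32 to 0.62) for KLK8. For KLK14 it was -0.08 (-0.49 to 0.32), since KLK14 was as high in shSOX2. In the same library all 5 squamous markers were below their scramble level, 3 past the fold, and they summed to 338.3 TPM against 1117 in scramble, 943.2 in shSOX2 and 534.1 in shCCAT1. Markers of other cell types stood higher there: the 2 measured endothelial markers of 3 summed to 9.28 TPM in shTP63, against 2.37 in scramble, 4.38 in shSOX2 and 2.56 in shCCAT1, the 3 leukocyte markers to 116.3 TPM against 69.1, 69.1 and 48.9, and the 5 fibroblast markers to 27.1 TPM against 15.3, 14.8 and 13.3. CD68 made up nearly all of the leukocyte sum, while PTPRC stayed at or below 0.236 TPM in TE5 and PDGFRB at or below 0.065. How much of the kallikrein values goes with these markers was not tested. In bulk RNA, more cells with a transcript and more transcript per cell cannot be told apart.

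In KYSE140, 9 kallikreins were counted upon TP63 silencing, with 0 past the fold upward and 1 downward, beside 8.91% and 4.29% of 21852 genes. The 1 was KLK5, which went from 53.4 to 23.0 normalized counts, a log2 fold change of -1.18 (-2.0 to -0.46) on 39 and 25 estimated counts. KLK10 was at -0.53 (-0.81 to -0.25) and KLK6 at -0.27 (-0.42 to -0.11), both opposite to TE5. KLK7 was at 0.64 (0.13 to 1.17) and KLK14 at 0.54 (0.15 to 0.94), on the same side as in TE5. KLK8 was at -0.21 and KLK11 at -0.31, with counting intervals that include 0. These signs hold relative to the other genes: without scaling between libraries the median over all genes is itself 0.62, and KLK6, KLK8, KLK10 and KLK11 then take values of 0.31, 0.37, 0.04 and 0.26, all below that median.

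Upon SOX2 silencing, KLK5, KLK9, KLK11 and KLK12, all low in these lines, were past the fold upward in KYSE140. These values share the scramble library with those of TP63 silencing. All 10 were counted there, 4 were past the fold upward and 0 downward, beside 6.92% and 6.39% of 20747 genes, and 9 of 10 were above 0, beside 11196 of 20747 genes. The 9 include KLK7 at 0.06 and KLK13 at 0.38, whose counting intervals include 0. KLK5 went from 53.4 to 219.7 normalized counts, a log2 fold change of 2.02 (1.53 to 2.58), and reached 2.34 TPM, more than in any other library. KLK11 went from 69.7 to 185.0, 1.40 (0.93 to 1.89). KLK12 went from 1 to 12.5 estimated counts, a value of 2.77 whose counting interval runs from 0.65 to 8.83. KLK9 went from 4.35 to 20.9 estimated counts, 1.93 (0.65 to 4.22). The abundant kallikreins differed less: KLK8 was at 0.38 (0.14 to 0.62), KLK10 at 0.34 (0.09 to 0.61) and KLK6 at -0.43 (-0.60 to -0.26), and summed TPM put KLK10 at -0.01. The 5 squamous markers were all above 0 in the same library, 1 past the fold. Genes of late squamous differentiation stood higher in the same library: 5 of 6 were above 0 and 3 past the fold upward, with IVL, a precursor of the cornified envelope, at 3.08 and KRT1 at 3.37, while LOR was at -1.14.

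The same library of KYSE140 stood apart from shTP63 of its own lane. Taken against each other, shTP63 was below shSOX2 by a log2 difference of -3.20 (-3.92 to -2.65) for KLK5, -1.70 (-2.17 to -1.28) for KLK11, -0.87 (-1.14 to -0.62) for KLK10 and -0.59 (-0.82 to -0.37) for KLK8. KLK7 went the other way, at 0.58 (0.10 to 1.085). For KLK14 the difference was 0.05 (-0.29 to 0.39) and for KLK6 0.16, with an interval that includes 0. KLK14 was thus above scramble in both knockdown libraries of KYSE140 and did not differ between them beyond counting error. In TE5 the same held for shTP63 and shSOX2, but not for shCCAT1 of the same lane, where KLK14 was at 0.30 (-0.26 to 0.93) over scramble. There shTP63 was above shCCAT1 by 0.80 (0.35 to 1.26) and shSOX2 by 0.88 (0.42 to 1.37).

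In TE5, SOX2 silencing left the abundant kallikreins near their scramble level. KLK6 was at 0.12 (0.03 to 0.21), KLK8 at -0.17, KLK10 at -0.15 (-0.22 to -0.07) and KLK7 at -0.06 (-0.36 to 0.25). KLK14 was the 1 of 7 counted that passed the fold upward, from 43.0 to 98.8 normalized counts, 1.18 (0.67 to 1.79), with 0 downward, beside 6.3% and 4.98% of 22726 genes.

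Upon CCAT1 silencing, studied in TE5 alone, KLK7, KLK10 and KLK6 were at their lowest levels of the 4 TE5 libraries. KLK7 went from 196.0 to 99.8 normalized counts, a log2 fold change of -0.97 (-1.31 to -0.63), KLK10 from 2911 to 1969, -0.56 (-0.64 to -0.48), and KLK6 from 1949 to 1457, -0.42 (-0.52 to -0.32). KLK8 was at -0.17, and at 0.20 without scaling between libraries, where the median over all genes is 0.41. Of 8 kallikreins counted, 1 was past the fold upward and 0 downward, beside 12.1% and 5.96% of 24112 genes. The 1 was KLK5, from 2 to 21 estimated counts, a value of 2.55 with a counting interval of 0.99 to 6.16. All 21 of these counts, and the 2 of scramble, were placed on a transcript annotated as a retained intron (ENST00000595585), so that coding KLK5 transcripts had 0 counts in both libraries.

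**Figure D4:**
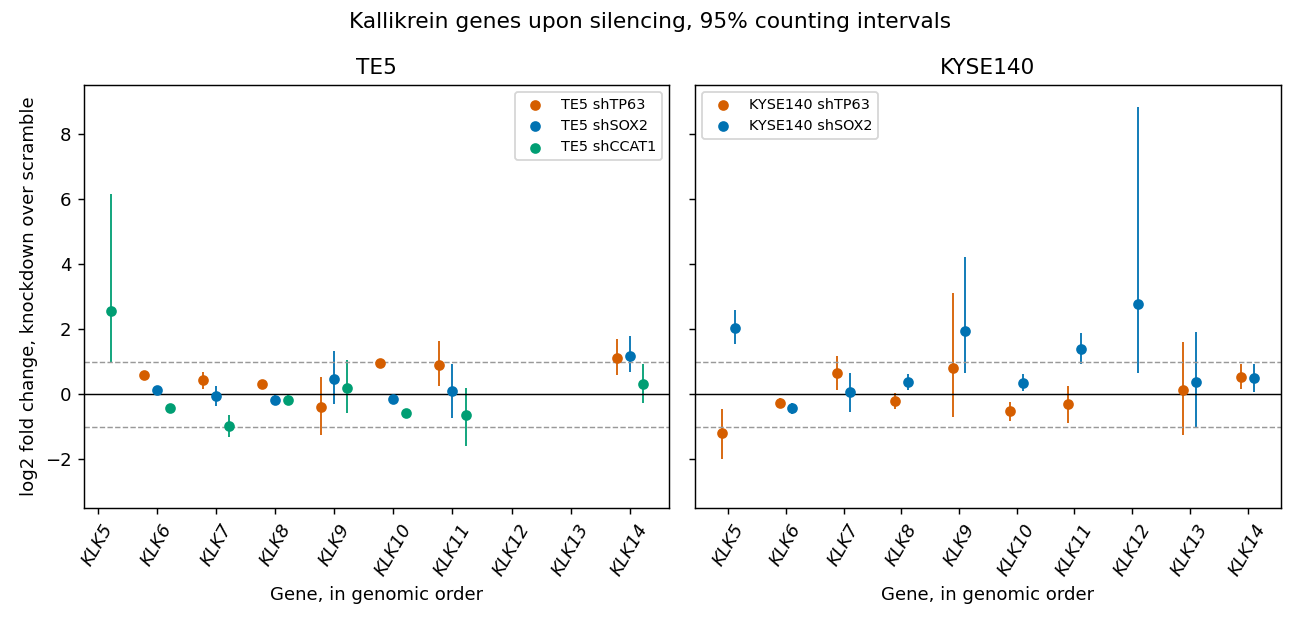
log2 fold change of each knockdown library over the scramble library of its line (y axis) for kallikreins with at least 10 estimated counts in 1 of the 2 libraries, genes in genomic order, TE5 left and KYSE140 right. Vertical lines are 95% counting intervals and dashed lines mark 1 and -1. KLK10 lies at 0.94 in TE5 shTP63 and at -0.53 in KYSE140 shTP63, and KLK5 at 2.02 in KYSE140 shSOX2.

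With the lines as replicates, no kallikrein passed the test for a silencing. In the edgeR fit with cell line as block and 2 residual degrees of freedom, 0 of 9 kallikreins tested had an adjusted p under 0.1 upon TP63 silencing, upon SOX2 silencing or between them, and 0 had an unadjusted p under 0.05. The silenced genes were not called in this edgeR fit either: TP63 had -1.95 (adjusted p = 0.287) and SOX2 -0.89 (adjusted p = 0.569), each upon its own silencing. The lack of calls therefore says little about whether kallikreins respond. Among all features, 0% were called for TP63 (0 of 30171, with 1340 higher and 1996 lower at an unadjusted p under 0.05, and 2336 called by DESeq2), 0.00331% for SOX2 and 0.00331% between TP63 and SOX2 silencing. DESeq2 called 0 kallikreins as well, although it gave an adjusted p to 3 of them for TP63 and to 6 for SOX2. The lowest unadjusted p upon TP63 silencing was that of KLK14 (log2 fold change 0.83, standard error 0.41, edgeR adjusted p = 0.528), which was above scramble in both lines. Upon SOX2 silencing KLK5 had 1.80 (standard error 0.83, adjusted p = 0.708) and KLK14 0.82 (standard error 0.41, adjusted p = 0.726). KLK14 was above scramble in both lines. KLK5 was above scramble in KYSE140, but in TE5 it had 6 estimated counts against 2, with a counting interval of -0.92 to 4.91 that includes 0. KLK10 had 0.37 upon TP63 silencing (standard error 0.50, adjusted p = 0.82), a mean over lines of opposite sign.

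The transcripts behind the gene values differed in kind. Protein-coding transcripts held 100% of KLK14 and 97.6% to 100% of KLK6 in every library, and 94.5% to 96.6% of KLK10 counts in TE5 but 71.6% to 83.5% in KYSE140. For KLK8 they held 69.7% to 81.8% in TE5 and 40.6% to 58.3% in KYSE140, the rest lying on retained introns and other non-coding forms. With protein-coding transcripts alone, KLK8 was at -0.57 in KYSE140 upon TP63 silencing, in place of -0.21. For KLK11 they held 22.5% to 71.3%, and its value upon CCAT1 silencing went from -0.65 to 0.88 with these alone. KLK9 is uncertain: 94.3% of its words of 31 bases also occur in ENSG00000269741, a locus that reads through KLK8 and KLK9 and had up to 118.1 estimated counts, more than KLK9 itself. For KLK8 this share was 36.4%. These words come from the annotated transcripts, not from the gene models quantified, which differ in length for some transcripts. Of the words of KLK5 10.2% and of those of KLK6 17.4% occur in the antisense locus ENSG00000269495, and 11.7% of those of KLK10 occur in other genes, most often in ENSG00000268739. An alternative chosen after seeing the data added the counts of the readthrough locus ENSG00000269741 to KLK8 and KLK9. KLK9 was then at -0.39 in place of 0.79 in KYSE140 upon TP63 silencing. Upon SOX2 silencing it was then at 0.87 in place of 1.93, no longer past the fold, which leaves 3 kallikreins past it in place of 4.

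Genes that act with the kallikreins were measured in the same libraries. Of the inhibitors SPINK5, SPINK6, SPINK7, SPINK9, PI3, SLPI, SERPINA12 and A2M, 3 of 8 reached 100 normalized counts in any library. SPINK5, the LEKTI gene, had 1354 normalized counts in KYSE140 scramble, 1796 in shTP63 and 1531 in shSOX2, and 732.3, 1247, 870.3 and 843.0 in TE5 scramble, shTP63, shSOX2 and shCCAT1. Upon TP63 silencing it was above scramble in both lines, at 0.77 and 0.41. Between the lines it was higher in KYSE140 (edgeR log2 difference 0.75, adjusted p = 0.0153), as was PI3, the elafin gene (2.59, adjusted p = 0.00214), while SLPI, a secreted inhibitor of neutrophil elastase, was lower (-4.68, adjusted p = 0.00195). In the silencing contrasts 0 of 4 inhibitors tested were called, with a median log2 fold change of 0.54 for TP63 and 0.32 for SOX2.

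Of 9 activating and partner proteases, 7 reached 100 normalized counts. ST14, the membrane protease matriptase that activates kallikrein proenzymes, lay between 7895 and 13789 normalized counts over all libraries and was not called between the lines (-0.41, adjusted p = 0.119). PRSS8, known as prostasin, was higher in KYSE140 (0.91, adjusted p = 0.00482), and PLAU, the urokinase gene, was lower (-3.97, adjusted p = 5.98e-04). TMPRSS11D, an airway trypsin-like protease, had 942.2 to 1412 normalized counts in KYSE140 and at most 3.30 in TE5. TMPRSS11E went from 64.4 to 364.2 normalized counts in KYSE140 upon SOX2 silencing, 2.48 (2.05 to 2.98), beside KLK5 and KLK11.

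Among substrates and the receptor, 6 of 8 genes reached 100 normalized counts. The receptor gene F2RL1 had 4696 to 7541 normalized counts and a log2 difference of 0.01 between the lines (standard error 0.20, adjusted p = 0.958). The desmosomal cadherin DSG1 went from 141.1 to 898.3 normalized counts in KYSE140 upon SOX2 silencing, 2.66 (2.37 to 2.98), and DSC1 from 173.8 to 414.4, 1.25 (0.95 to 1.56), and CDSN, corneodesmosin, had at most 11.9 in any library. SMPD1, the acid sphingomyelinase gene, was above scramble upon TP63 silencing in both lines, at 1.44 in TE5 and 1.20 in KYSE140, and was not called in the fit of both lines, where 0 of 6 genes of the group were called for either silencing. CAMP, whose peptide kallikreins process, was at 0 in every library.

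The kallikreins at the ends of the gene family were compared as well. KLK1 and KLK4 reached 100 normalized counts, and KLK2, KLK3 and KLK15 did not. KLK4, best known from enamel and prostate, had 190.1 to 291.0 normalized counts in TE5 and 418.0 to 583.0 in KYSE140 (log2 difference 1.01, adjusted p = 0.0197). KLK1 had 40.4 to 80.7 in TE5 and 111.2 to 373.9 in KYSE140 (1.495, adjusted p = 0.0588), and like KLK5 it was highest in KYSE140 shSOX2.

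For the 2 kallikreins with the highest mean TPM, the genes most like them were sought among 16710 genes, by Pearson's correlation of log2 normalized counts over the 7 libraries after centring each line. For KLK10 these were NAV1 (r = 0.99), RTL9, SYNE3, BEST4 and ITFG1 (all 0.98), and for KLK8 they were GREP1 and LCN2 (both 0.99), CYP2W1, ANK1 and EXOC3 (0.97 to 0.98). LCN2, the lipocalin gene, had 10824 normalized counts in TE5 scramble and 20204 in shTP63, and 30.1, 20.2 and 55.9 in KYSE140 scramble, shTP63 and shSOX2. These values describe 7 libraries of 2 lines, which share scramble libraries and lanes. Between kallikreins the same measure was 0.93 for KLK8 and KLK11, 0.91 for KLK8 and KLK10, 0.88 for KLK10 and KLK11, 0.74 for KLK6 and KLK7, 0.72 for KLK6 and KLK10 and -0.70 for KLK5 and KLK7.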

How the data were processed

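Per their methods, the authors quantified 100-base paired-end reads by pseudoalignment (Kallisto) against Ensembl 82 transcripts of hg19. They deposited estimated counts, not scaled between libraries, and TPM per transcript. The 196354 transcripts of the files were assigned to genes with GENCODE 44 mapped to GRCh37: 182863 matched, with 93.58% of counts, and the 13491 others were kept as single features in the fit and left out of gene values. The 10 members, the gene lists and the named genes were chosen with earlier results of these data known. Named were all 10 kallikreins, the targeted genes, listed genes with at least 100 normalized counts in 1 library, overlapping loci, and the 5 genes most like each of the 2 kallikreins of highest mean TPM.

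Gene counts were normalized with TMM. Per-line values are log2((shRNA + 1)/(scramble + 1)) for genes with at least 10 estimated counts in 1 of the 2 libraries, with intervals from the exact binomial split of both counts (95%) and changes past 1 or -1 counted. Since each condition has 1 library, no p was computed within a line. Rounded counts of 6 libraries entered edgeR 4.0.16 (R 4.3.3; filterByExpr, quasi-likelihood test, cell line as block), with DESeq2 1.42.0 as an alternative and Benjamini-Hochberg adjustment over all features at 0.1. Every sample is labelled replicate 1, so the numbering gives no pairing. Libraries are paired by their cell line, which is the block. Line and condition are both in this fit, and the residual spread is what remains after both. It holds differences in silencing effect between the lines and variation between libraries, which cannot be told apart. The p-values do not describe replicates of 1 line. Standard errors given with edgeR values were derived from the test, as the size of the log2 difference over the square root of its F statistic. The script was tested on simulated counts that varied less between libraries than these data (common dispersion here 0.141) and changed alike in both lines. That test thus does not show how many changes the fit would find here. Start shares have Clopper-Pearson intervals. Scaling, filters, pseudocount, unit, transcript set and libraries were varied. Other steps used Python 3.11.15 (pandas 2.3.3, scipy 1.17.1, matplotlib 3.10.9). Windows and words of 31 bases were read from GRCh37. The sequence before the downstream start of KLK6 is not reported here.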

Additional observations from a re-analysis of the deposited data

Results flagged for a closer look

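For 5 pairs of values, TE5 and KYSE140 lay on opposite sides of the scramble level with counting intervals that exclude 0 in both lines. With 1 library per line the difference itself was not tested. Upon TP63 silencing KLK10 differed most, by 1.47 on the log2 scale (0.94 in TE5 minus -0.53 in KYSE140), and KLK6 by 0.86 (0.59 and -0.27). Upon SOX2 silencing the differences were 0.55 for KLK6 (0.12 and -0.43), -0.55 for KLK8 (-0.17 and 0.38) and -0.49 for KLK10 (-0.15 and 0.34). Library size, lane and, in TE5, flow cell differ between the libraries compared.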

How the results depend on the processing

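The counts of kallikreins past the fold rest on few genes and moved with the settings. Without scaling between libraries, 4 were past it upward in TE5 shTP63, and 3 upward and 0 downward in KYSE140 shTP63. DESeq2 size factors put 1 (KLK7) past it downward in TE5 shCCAT1. With at least 1 count required, 3 were past it upward and 1 downward in TE5 shSOX2, 1 downward in TE5 shCCAT1 and 1 upward in KYSE140 shTP63. With at least 50 counts, 0 were past it upward in TE5 shCCAT1, 0 downward in KYSE140 shTP63 and 2 upward in KYSE140 shSOX2. A pseudocount of 10 left 0 upward in TE5 shTP63 and 0 downward in KYSE140 shTP63. Summed TPM gave 2 and 0 for these, and protein-coding transcripts alone gave 2 upward in TE5 shTP63 and 1 upward in KYSE140 shTP63. The cause of these moves was not tested.

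Over both lines, DESeq2 called 2336 features for TP63, 982 for SOX2 and 3098 between them, and without a filter on low counts edgeR called 126 between them, while 0 kallikreins were called under any of these. The libraries are paired by cell line, which is the block in the fit. Without the replicate block, 0 features were called for SOX2 and 0 between TP63 and SOX2, KLK10 had -0.10 upon SOX2 silencing and KLK8 0.17 between TP63 and SOX2, both with the opposite sign, while between the lines, without condition in the fit, KLK14 lost its call and KLK11 was called (adjusted p = 0.0699 in edgeR). Between TP63 and SOX2 silencing, KLK14 had -0.01 with DESeq2 (-0.0132) and with its size factors (-0.0138). When 1 library was left out, 0 features were called for SOX2 or between TP63 and SOX2, each way, and 4 to 6 kallikreins between the lines. Between the lines, 13040 to 15099 features were called in these fits beside those kallikreins. With 1 library left out, the lone library of a condition is assumed to vary like the others.

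Leaving out 1 library turned the sign of these values, none of which was called. Upon TP63 silencing the ranges were -0.68 to 1.07 for KLK10, -0.38 to 0.44 for KLK8, -1.33 to 1.34 for KLK5, -0.20 to 0.54 for KLK6, -0.69 to 1.23 for KLK11, -0.053 to 3.29 for KLK13 and -0.42 to 1.07 for KLK9. Upon SOX2 silencing they were -0.53 to 0.67 for KLK10, -0.30 to 0.48 for KLK8, -0.55 to 0.20 for KLK6, -0.26 to 1.65 for KLK11 and -0.086 to 0.0415 for KLK7. Between TP63 and SOX2 they were -0.22 to 0.22 for KLK14, -0.75 to 0.98 for KLK10, -0.45 to 0.36 for KLK8 and -1.43 to 0.55 for KLK11. For KLK10, KLK8, KLK6 and KLK11 upon TP63 silencing the sign turned without the TE5 shTP63 library. Of the values of single genes under all settings, 582 stayed within their counting interval or, in the fit, kept their direction and call. Another 26 moved beyond that interval. In the fit, 17 lost and 3 gained a call, and 29 turned their sign. Sign changes of per-line values are not in the 29. Without scaling, KLK6 in KYSE140 shTP63 (-0.27 to 0.31) is among the 26 and KLK9 in TE5 shTP63 (-0.38 to 0.036) among the 582. A changed count filter leaves a per-line value as it is, which adds to the 582. In 7 libraries of 2 lines with 1 library per condition, counting intervals limit KLK5, KLK9, KLK12 and KLK13 most.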
